A study of Homo sapiens with 4 samples.

Results

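Cholesterol and fatty acid synthesis was followed through 30 listed genes in a pair of human B-cell lymphoma lines, each with parental cells and a rituximab-resistant derivative. The list was ordered by pathway step, with the regulators of the SREBP transcription factors set apart. It held 7 genes of the mevalonate and isoprenoid steps, 11 of the squalene and sterol steps, 5 SREBP regulators and sterol carriers and 7 genes of fatty acid synthesis and desaturation, and it is not the complete pathway. A gene was read by the probe sets that the array annotation gives to that gene alone, and its value is that of the brightest of these, judged by mean signal over all 4 arrays. By this rule 27 of the 30 genes had a value, out of 19775 genes in all. FADS1 and CYP51A1 have only probe sets with several gene symbols, FDFT1 was not matched to a probe set, and these 3 genes were not analysed here. MVD, a decarboxylase of the mevalonate route, lay below the signal floor on every array (44.7, 5.36, 69.6 and 13.1), which left 26 genes.

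Jeko-1 cells come from a mantle cell lymphoma, Raji cells from a Burkitt lymphoma. The arrays compare untreated parental Jeko-1 with Jeko-1/R, and untreated parental Raji with Raji/R. Each R line is a resistant derivative of its parent, and its cells are labelled as treated with rituximab, an antibody against CD20. Each of the 4 groups was read on 1 array, so differences within a pair carry no test, and each subline is represented by 1 culture. The labels give no dose or time of treatment. Resistance and rituximab treatment coincide in both pairs, so the 2 cannot be told apart, and a difference named for resistance below may come from either.

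Cells build cholesterol from acetyl-CoA through mevalonate, farnesyl diphosphate and squalene, and they build fatty acids from the same precursor through malonyl-CoA. When sterols are scarce, SCAP escorts the SREBP proteins from the endoplasmic reticulum to the Golgi, where they are cut to active transcription factors. INSIG proteins hold SCAP back when sterols are plentiful. SREBF2 is best known for driving sterol genes and SREBF1 for driving fatty acid genes. In B cells, membrane cholesterol is part of the lipid rafts in which CD20 and the B-cell receptor are organised.

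The arrays were scaled to a common target, and the mean signal without its highest and lowest values lay between 494 and 497. The Raji/R array stood apart, with 55.6% of its probe sets at or above the signal floor of 77.5, against 48.0% to 48.3% on the others. The pan-B-cell genes CD79A, CD79B, CD22, MS4A1 and PAX5 were above the floor on all 4 arrays, and CCND1 and SOX11, which mark mantle cell lymphoma, were above it only on the Jeko-1 and Jeko-1/R arrays. Of 9 T-cell markers, 0 reached the floor in Jeko-1 and 5 in Raji/R, with summed signals from 253 to 809, and the adipocyte genes PLIN1 and ADIPOQ stayed at or below 77.8. Summed signals of 6 natural killer cell markers were 140 to 233 in the Jeko-1 lines and 1121 to 2147 in the Raji lines, there mostly from NKG7. Those of 6 stromal and adipocyte markers were 160 to 224 and 1914 to 2067, in the Raji lines mostly from COL1A1. Those of 6 myeloid markers ran from 192 to 929 and of 3 hepatocyte markers from 51.0 to 390, and the 4 plasma cell markers were above the floor on every array. The natural killer and stromal sums move with the cell line, and the T-cell, natural killer, myeloid and hepatocyte sums are highest in Raji/R. The part of these markers in the results was not tested.

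**Figure D1:**
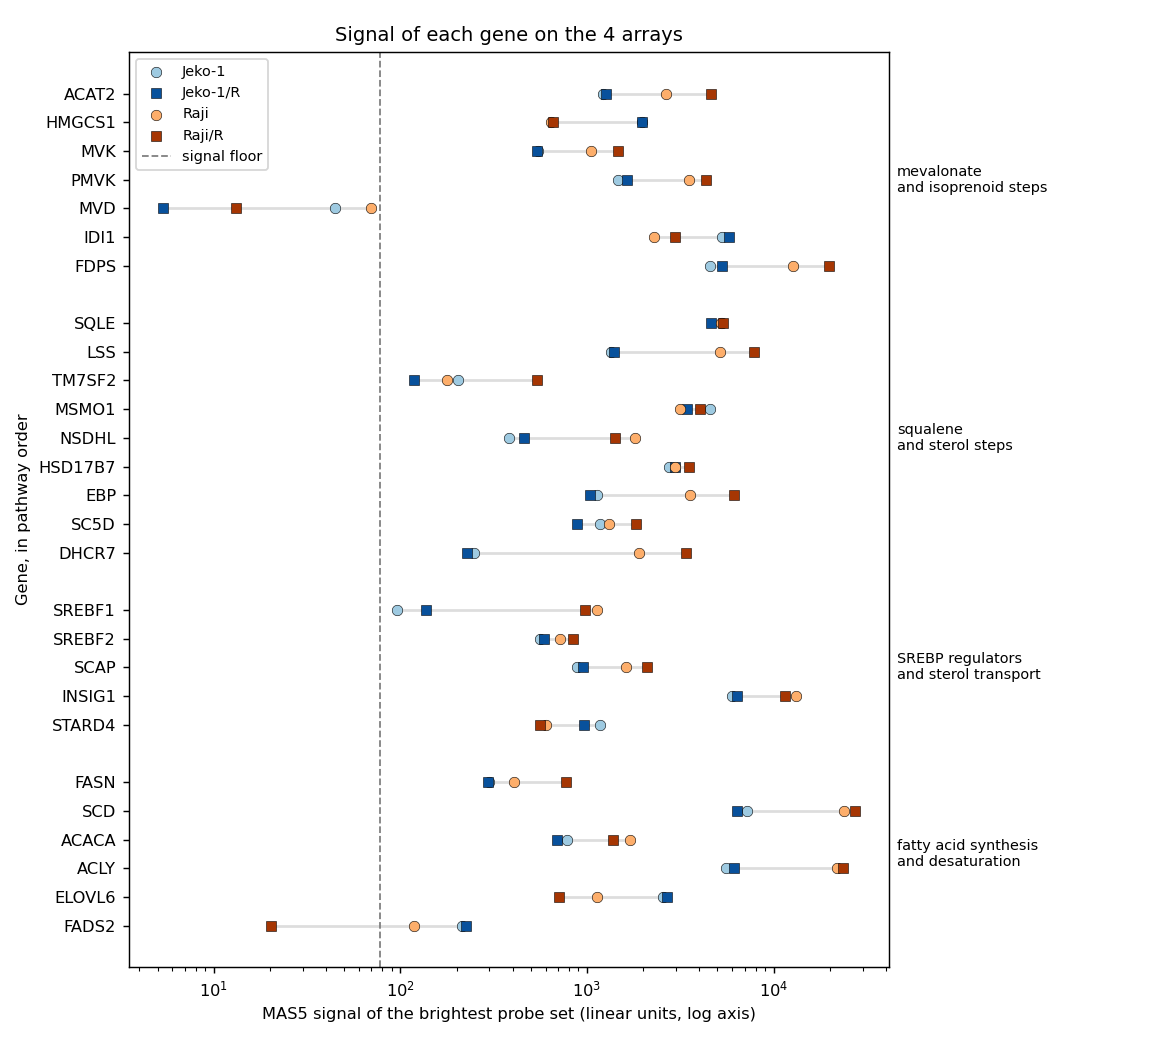
MAS5 signal (log axis) of the brightest probe set of 27 genes on each of the 4 arrays, in pathway order, with the signal floor of 77.5 as a dashed line. Points of a line lie close together for most genes, DHCR7 and SREBF1 show the widest gap between Jeko-1 and Raji cells, and MVD lies below the floor on all 4 arrays. Signals of different genes come from different probes and are not comparable with each other.

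The first question was whether Jeko-1/R cells differ from Jeko-1 cells in this pathway. None of the 26 genes differed by 2-fold or more in Jeko-1/R, where 0.38% of all 11588 genes measured in the pair were 2-fold higher and 0.595% were 2-fold lower (0.975% either way). The 26 log2 ratios ran from -0.78 to 0.51 with a median of 0.06, against 0.001 over all measured genes, and 15 were above 0. As a stand-in for error, log2 ratios of different probe sets of 1 gene varied with an SD of 0.25 in this pair. In bulk RNA, fewer cells making a transcript and less transcript per cell cannot be told apart.

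On their brightest probe sets, the 6 measured enzymes of the mevalonate steps had log2 ratios between -0.03 and 0.21 in Jeko-1/R. HMGCS1, the synthase that commits acetoacetyl-CoA to the mevalonate route, gave 1961 in the parent and 1967 in the subline. ACAT2, the cytosolic thiolase before it, gave 1215 and 1269. The widest ratio among these 6 genes was 0.21, for FDPS, which makes farnesyl diphosphate, with signals of 4571 and 5279. The lowest was -0.03, for the kinase MVK. Dimmer probe sets disagreed for HMGCS1, with 308 and 145 (-1.09), and for MVK, with 123 and 207 (0.75), and with the mean of all its probe sets HMGCS1 stood at -0.54.

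Among the 9 measured genes of the squalene and sterol steps, 6 were lower in Jeko-1/R, as were 5770 of all 11588 measured genes. The median log2 ratio of the 9 genes was -0.12, smaller in size than the probe set SD of 0.25 in this pair. TM7SF2, a sterol reductase of the endoplasmic reticulum, had the lowest ratio of all 26 genes, with signals of 204 and 119 and a log2 ratio of -0.78. SC5D, a sterol desaturase, went from 1179 to 887 (-0.41), and MSMO1, which removes sterol methyl groups, from 4540 to 3438 (-0.40). NSDHL, a dehydrogenase of the same demethylation step, had the highest ratio of this group, with signals of 381 and 458 (0.27). With the mean of all probe sets, SC5D turned to 0.49, through a second probe set that lay below the floor on all 4 arrays, while LSS moved from 0.07 to -0.40, DHCR7 from -0.12 to -0.51 and SCD from -0.19 to -0.68.

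Of the SREBP regulators, SREBF1 had the highest ratio of all 26 genes in Jeko-1/R, from 96.0 to 137 (0.51). Both signals lie near the floor of 77.5. SREBF2 gave 559 and 589 (0.08), the escort gene SCAP 884 and 955 (0.11), and INSIG1 5957 and 6373 (0.10). STARD4, a sterol carrier protein, was the only one of the 5 with a ratio below 0, from 1171 to 964 (-0.28). The 6 fatty acid genes lay between -0.19, for the oleate-forming desaturase SCD, and 0.14, for the citrate lyase ACLY.

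**Figure D2:**
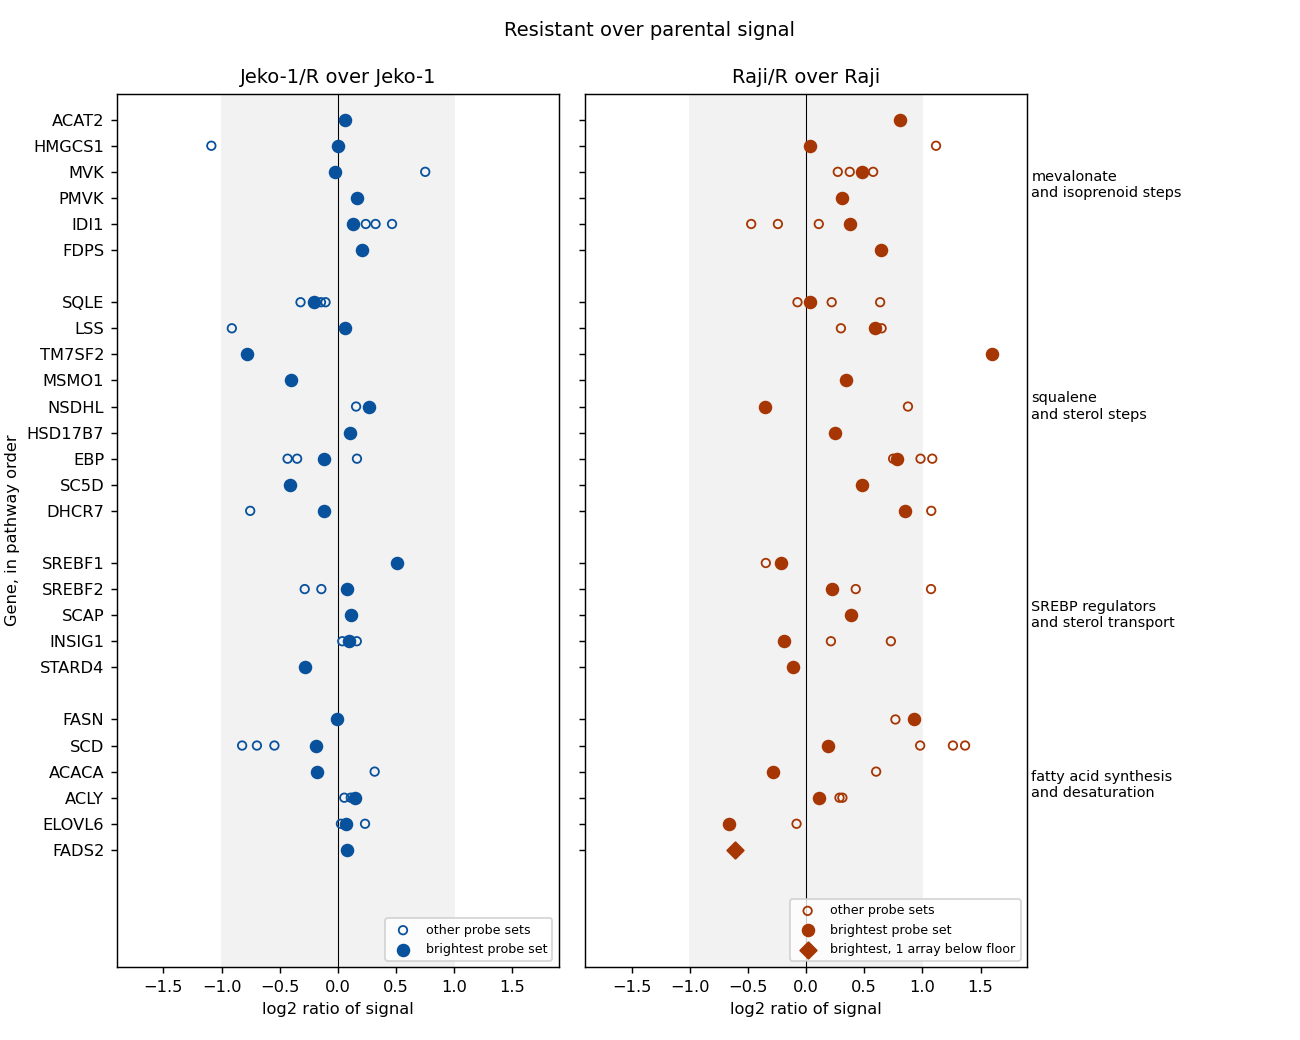
Log2 ratio of resistant over parental signal for 26 genes in the Jeko-1 pair (left) and the Raji pair (right), where filled points are the brightest probe set, open points the other probe sets and the grey band marks less than 2-fold. All filled points of the Jeko-1 pair lie inside the band, and TM7SF2 at 1.60 is the only filled point of the Raji pair outside it. FADS2 in the Raji pair is a diamond because its Raji/R signal was below the floor.

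The second question was whether Raji/R cells differ from Raji cells. Most genes of the sterol pathway had higher signals in Raji/R, by less than 2-fold, and only TM7SF2 passed 2-fold. It was 1 of 26 genes called higher, where 7.01% of all 14642 measured genes were 2-fold higher, and 0 were called lower, where 2.64% were (9.64% either way). The 26 log2 ratios had a median of 0.28, against 0.08 over all measured genes, and 19 of the 26 (73.1%) were above 0, against 56.1% of all genes. Probe sets ending in x_at or s_at may also bind other transcripts, and without them the median was 0.04 over 16 genes. These are a smaller set, since TM7SF2, FASN, DHCR7 and ACAT2, with the largest ratios of the 26, then had no value. Of the 16, 15 moved by less than the SD given next, and IDI1 moved from 0.38 to -0.24. Different probe sets of 1 gene varied with an SD of 0.49 in this pair, so single ratios below that size are within the disagreement between probe sets.

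On their brightest probe sets, all 6 measured genes of the mevalonate and isoprenoid steps were above 0 in Raji/R. Their median was 0.43, and 56.1% of all genes were above 0. ACAT2 had the largest ratio, with signals of 2644 in Raji and 4619 in Raji/R (0.80). FDPS followed, from 12689 to 19833 (0.64), and MVK went from 1049 to 1465 (0.48). PMVK, the next kinase of the route, gave 3504 and 4331 (0.31), and the isomerase IDI1 gave 2286 and 2966 (0.38). With the mean of its probe sets IDI1 stood at -0.06. HMGCS1 stood nearly still on its brightest probe set, with 637 and 654 (0.04).

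Of the 9 measured genes of the squalene and sterol steps, 8 were above 0 in Raji/R, where 56.1% of all genes were. The median of the 9 genes was 0.48. TM7SF2 went from 179 to 543, a log2 ratio of 1.60, and so ran opposite to its ratio in Jeko-1/R. TM7SF2 has a single probe set, which ends in s_at, and under a higher floor (the 75th percentile of all values) its ratio was 0.56, since its Raji signal then lies below that floor. DHCR7, the reductase that makes cholesterol from its immediate precursor, gave 1889 and 3402 (0.85). EBP, the sterol isomerase, gave 3555 and 6129 (0.79), and LSS, which closes squalene epoxide to lanosterol, gave 5183 and 7803 (0.59). SC5D stood at 0.48, MSMO1 at 0.34 and the ketoreductase HSD17B7 at 0.25. SQLE, the squalene epoxidase and a known control point of the pathway, gave 5248 and 5387 (0.04). NSDHL was the exception, from 1800 to 1408 (-0.35), but its other probe set went from 460 to 844 (0.88), and their mean gave 0.26.

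The regulators lay on both sides of 0. SREBF2 had signals of 720 and 841 (0.22) and SCAP of 1609 and 2097 (0.38), whereas SREBF1 had 1133 and 976 (-0.22), INSIG1 13184 and 11559 (-0.19) and STARD4 604 and 557 (-0.12). The other SREBF1 probe set was also lower in Raji/R, with 247 and 194. The median of these 5 genes was -0.12.

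The fatty acid genes split in Raji/R. FASN, the fatty acid synthase, went from 407 to 774 (0.93), the second-largest ratio of all 26 genes, and its other probe set gave 0.77. SCD stood at 0.19 and ACLY at 0.11 on their brightest probe sets, and at 0.03 and -0.03 after a lowess adjustment for signal. ACACA, the carboxylase that makes malonyl-CoA, went from 1692 to 1385 (-0.29), but its other probe set gave 0.60. ELOVL6, which lengthens palmitate-sized acyl chains, went from 1127 to 710 (-0.67), the lowest ratio with both signals above the floor, with -0.08 from another probe set. FADS2, the desaturase that opens polyunsaturated fatty acid synthesis, went from 118 to a value below the floor, which makes it at least 1.53-fold lower, and without a floor but with a pseudocount its log2 ratio was -1.88.

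Signal level was set beside these ratios, because the scaling of the arrays leaves differences that depend on signal. Among genes whose Raji and Raji/R signals averaged 106 to 204, the median log2 ratio was 0.51, and 0 of the 26 pathway genes lay there. Genes that averaged 2205 or more had a median of -0.01 and included 13 of the 26, whose own median was 0.34. Those that averaged 668 to 2205 had a median of -0.06 and included 8 of the 26, whose own median was 0.004. After a lowess adjustment for signal, the median of the 26 genes in Raji/R was 0.34, with 18 of 26 above 0, and after quantile normalization it was 0.29. The medians of the mevalonate and sterol groups were 0.50 and 0.56 after the lowess adjustment, and those of the regulators and of the fatty acid group were -0.09 and -0.12.

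**Figure D3:**
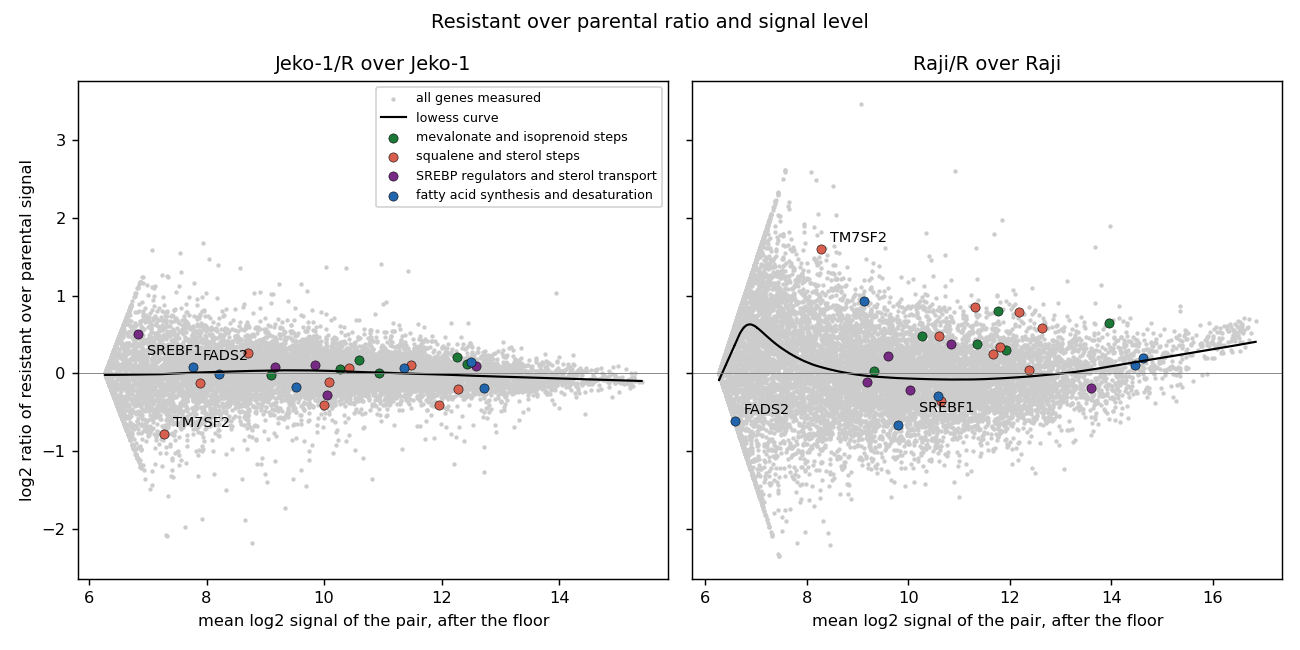
Log2 ratio of resistant over parental signal against the mean log2 signal of the pair for all measured genes (grey), with the lowess curve in black and the pathway genes coloured by role. In the Raji pair the curve lies above 0 at low signals, and most mevalonate and sterol genes lie above it at higher signals, while in the Jeko-1 pair the pathway genes lie on both sides of a flat curve.

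Several genes were read by more than 1 probe set, and in Raji/R the dimmer probe sets tended to give larger ratios. Of 30 other probe sets of 16 pathway genes measured in the Raji pair, 25 had ratios above 0, against 58.1% of all other probe sets, and 6 reached 2-fold higher, where 7.95% of all other probe sets were, while 0 were 2-fold lower, where 3.29% were. Their median log2 ratio was 0.59, against 0.11 over all 12232 other probe sets of the array. These 2 medians were not matched or adjusted for signal, and ratios in this pair depend on it (median 0.51 over genes averaging 106 to 204). The median difference between another probe set and the brightest one of its gene was 0.20 for the pathway genes and 0.12 for all genes. In the Jeko-1 pair 26 other probe sets were measured, of which 13 were below 0, with a median of -0.04, and 1 was 2-fold lower, where 0.503% of all other probe sets were. Probe sets of 1 gene share its transcripts and are not replicates.

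SCD was one of the genes whose probe sets differed in size. In the order parent then subline, its brightest probe set gave 7240 and 6337 in Jeko-1 cells and 23780 and 27172 in Raji cells, while the next gave 335 and 230, then 1478 and 3547. The 3 dimmer SCD probe sets had log2 ratios of -0.55, -0.82 and -0.70 in Jeko-1/R and of 1.26, 1.37 and 0.98 in Raji/R, against -0.19 and 0.19 from the brightest. The values of -0.82 and -0.70 are limited by the floor, which the Jeko-1/R signals did not reach. All 4 SCD probe sets therefore lay below 0 in Jeko-1/R and above 0 in Raji/R, with sizes that differ. The brightest lay close to 0 in Raji/R after the lowess adjustment (0.03) and after quantile normalization (0.06). EBP was more even in Raji/R, where its other probe sets gave 0.98, 0.75 and 1.09 beside 0.79 from the brightest. The other DHCR7 probe set gave 1.08, with signals of 1148 and 2421, and a second SREBF2 probe set gave 1.07, with 440 and 926. IDI1 was mixed, with 0.38 from its brightest probe set and 0.11, -0.24 and -0.47 from the others. Where probe sets lie along their transcripts was not analysed here, and RNA quality was not checked.

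**Figure D4:**
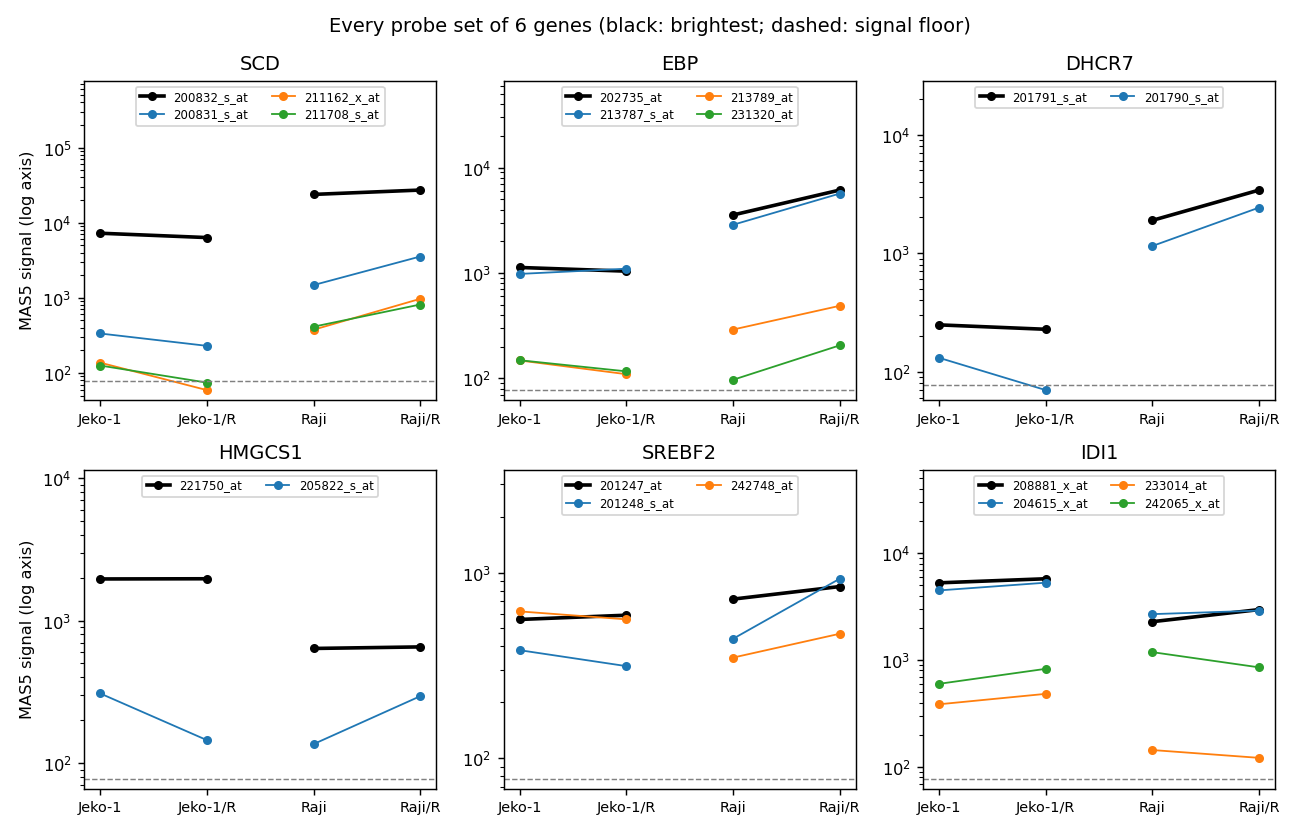
MAS5 signal (log axis) of every probe set of SCD, EBP, DHCR7, HMGCS1, SREBF2 and IDI1 on the 4 arrays, with lines joining each parent to its subline, the brightest probe set in black and the floor dashed. The dimmer SCD probe sets slope down to Jeko-1/R and up to Raji/R more steeply than the brightest, and of the 2 HMGCS1 probe sets 1 is flat in both pairs while the other slopes down in the first pair and up in the second.

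Across both lines the resistant sublines were compared with their parents in 1 fit by limma with the cell line as a term. No gene of the pathway passed an adjusted p of 0.05, and 0% of all 15575 genes did. Without adjustment, 0 of the 26 pathway genes and 324 of all genes had a p under 0.05 in limma. The lowest unadjusted limma p of the pathway was 0.142 (adjusted p = 0.974), for FDPS, which stood 0.43 ± 0.26 (SE, 2 pairs) higher on the log2 scale in resistant cells and was higher in 2 of 2 pairs. FASN stood at 0.46 ± 0.30 and ACAT2 at 0.43 ± 0.28, with Jeko-1 ratios of -0.01 and 0.06.

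The widest differences in this pathway lay between the cell lines. Raji cells had higher signals than Jeko-1 cells for most enzymes of the sterol and fatty acid routes and for SREBF1, while HMGCS1, IDI1, STARD4, ELOVL6 and FADS2 were higher in Jeko-1 cells. In the limma fit with resistance as a term, 20 of 26 genes passed an adjusted p of 0.05, of which 15 were higher in Raji cells and 5 higher in Jeko-1 cells. Among all 15575 genes, 53.4% passed, with 30.1% higher in Raji cells and 23.3% higher in Jeko-1 cells, so a call by itself is common here. The pathway's share higher in Raji cells was 57.7% and its share higher in Jeko-1 cells 19.2%. The median log2 difference was 1.0 over the 26 genes and 0.29 over all genes. Both Raji arrays lay above both Jeko-1 arrays for 18 of the 26 genes, where 42.3% of all genes did, and both Jeko-1 arrays lay above for 5, where 29.7% did.

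The arrays of a line are a parent and its own subline, not separate cultures of 1 group, and the p-values do not measure the spread between separate cultures. Their spread comes from these arrays and is drawn by limma toward that of all 15575 genes. It has 5.89 prior degrees of freedom against 1 residual, so the SEs are mostly shared between genes. Without the Jeko-1 array or without the Jeko-1/R array, 0 of the 26 genes and 0 of all genes passed in a limma fit on cell line alone. Without the Raji array 15 of the 20 calls were kept, and without the Raji/R array 13 were, with all 20 in the same direction each time. In each of these 2 fits the lone Raji array is assumed to vary like the Jeko-1 lines. These alone give the spread within a line, before limma draws it toward that of all genes. With every gene of the array in the fit, 2 of the 20 were kept, HMGCS1 and ACLY. In these comparisons, and for other probe sets, values below the floor were raised to it.

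DHCR7 was the gene furthest apart between the lines, with signals of 248 and 228 in Jeko-1 and Jeko-1/R and of 1889 and 3402 in Raji and Raji/R. Its log2 difference was 3.42 ± 0.31 (SE; limma adjusted p = 0.000151), and its other probe set gave 4.05. SREBF1 came next, with 96.0 and 137 in the Jeko-1 lines against 1133 and 976 in the Raji lines, a log2 difference of 3.20 ± 0.28 (adjusted p = 0.000140). SREBF2 did not pass, with 559, 589, 720 and 841 on the 4 arrays and a difference of 0.44 ± 0.24 (adjusted p = 0.177), although it passed in limma after quantile normalization (0.76), after cyclic loess (0.70) and with the higher floor. The other SREBF2 probe sets disagreed in direction between the lines, at 0.88 and -0.54, and that of SREBF1 had 247 and 194 in the Raji lines and values below the floor in both Jeko-1 lines.

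In the sterol steps LSS stood at 2.21 ± 0.26, EBP at 2.11 ± 0.30 and NSDHL at 1.93 ± 0.27, all with a limma adjusted p of at most 0.00104. LSS had 1342 and 1404 in the Jeko-1 lines against 5183 and 7803 in the Raji lines. EBP had 1130 and 1042 against 3555 and 6129, and NSDHL had 381 and 458 against 1800 and 1408. Both Raji arrays lay above both Jeko-1 arrays for these 3 genes, as they did for 42.3% of all genes. The other LSS probe sets gave 2.55 and 2.01 and that of NSDHL 1.98, while those of EBP gave 1.96, 1.56 and 0.10. By contrast SQLE (0.10), HSD17B7 (0.18) and MSMO1 (-0.15) had differences smaller than their SE on their brightest probe sets, and SC5D (0.60) and TM7SF2 (1.0) did not pass either. The other SQLE probe sets gave -2.01, 0.11 and 0.47. TM7SF2 did not separate the lines, since its Raji signal of 179 lay between 119 in Jeko-1/R and 204 in Jeko-1.

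The mevalonate steps held calls in both directions. FDPS had 4571 and 5279 in the Jeko-1 lines and 12689 and 19833 in the Raji lines, a difference of 1.69 ± 0.26. ACAT2 stood at 1.49 ± 0.28, PMVK at 1.33 ± 0.24 and MVK at 1.19 ± 0.26. HMGCS1 ran the other way, with 1961 and 1967 in the Jeko-1 lines and 637 and 654 in the Raji lines (-1.61 ± 0.24, limma adjusted p = 0.00141), but its dimmer probe set gave -0.08, and with the mean of its probe sets it no longer passed. IDI1 stood at -1.08 ± 0.25, with other probe sets at -0.80, -1.71 and 0.51.

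In the fatty acid group ACLY, which supplies cytosolic acetyl-CoA, had 5532 and 6111 in the Jeko-1 lines and 21854 and 23619 in the Raji lines (1.97 ± 0.24), and its other probe sets gave 1.88 and 1.81. SCD stood at 1.91 ± 0.25, with 3.05, 2.55 and 2.56 from its other probe sets. ACACA (1.06 ± 0.24) and FASN (0.92 ± 0.30) were also higher in Raji cells. ELOVL6 was lower there, with 2553 and 2685 in the Jeko-1 lines and 1127 and 710 in the Raji lines (-1.55 ± 0.28), and its other probe sets gave -1.54 and -2.67. FADS2 had 213 and 225 in the Jeko-1 lines, 118 in Raji and a value below the floor in Raji/R, which the fit raised to the floor (-1.19 ± 0.28). Of the remaining regulators, SCAP (1.0 ± 0.25) and INSIG1 (1.0 ± 0.25) were higher in Raji cells and STARD4 (-0.87 ± 0.25) in Jeko-1 cells. After quantile normalization and after cyclic loess, INSIG1 and STARD4 no longer passed. With a pseudocount in place of the floor, INSIG1, STARD4, SCAP, FASN and FADS2 did not pass, and FASN did not pass with the higher floor or without the resistance term.

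**Figure D5:**
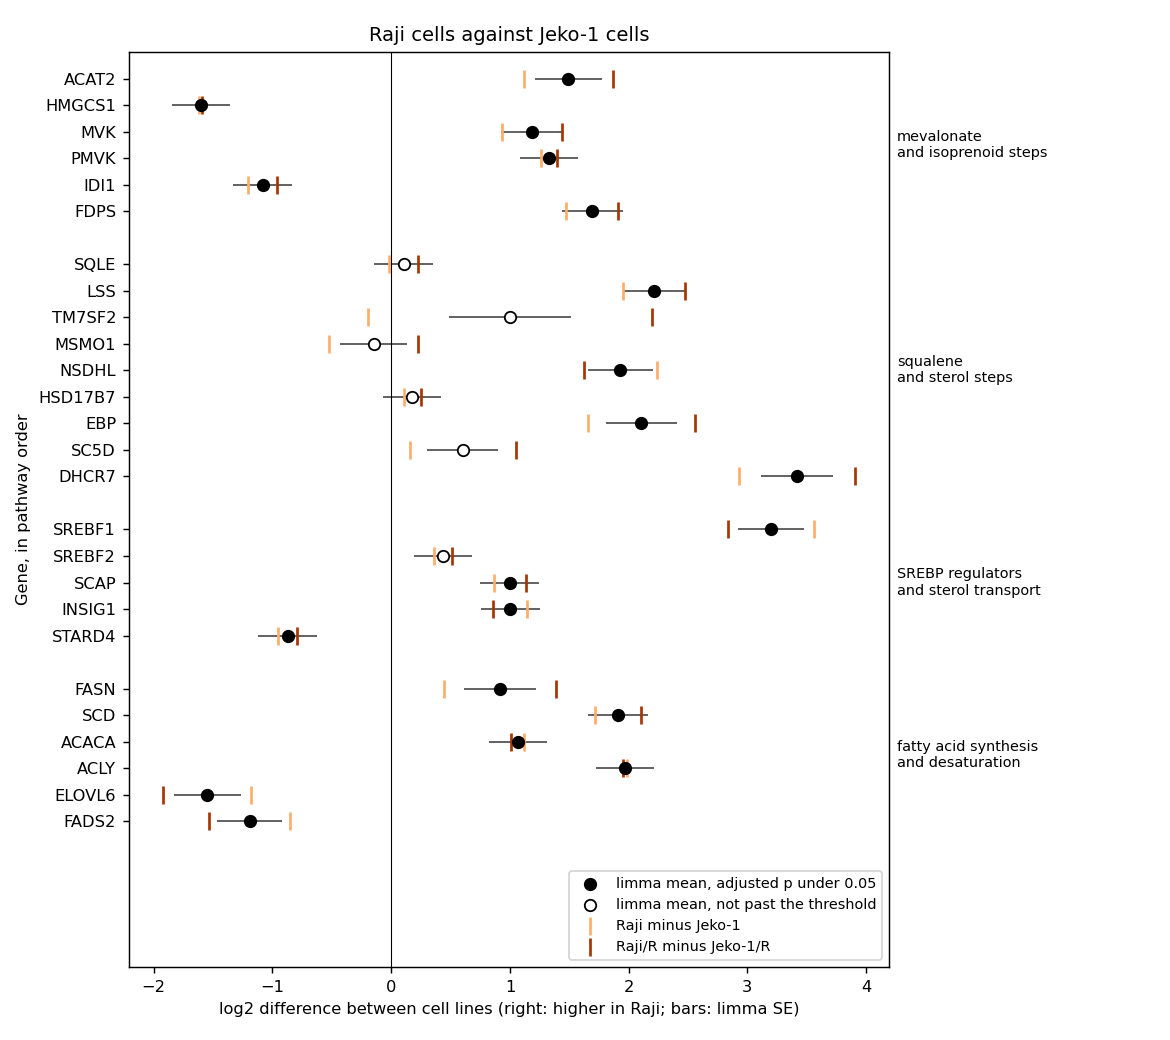
Log2 difference between Raji and Jeko-1 cells for 26 genes, with the limma mean and its SE (black, filled where the adjusted p was under 0.05) and the parental and resistant comparisons as ticks. Most genes lie right of 0, up to DHCR7 at 3.42, and HMGCS1, IDI1, STARD4, ELOVL6 and FADS2 lie left of it in both comparisons.

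Promoter sequence was set beside these differences for the genes that differed most between the lines in each direction and for both SREBP genes. RefSeq (GRCh38.p14) gave a promoter window for 26 of the 30 listed genes, all but ACAT2, FDFT1, SQLE and FASN, and the 250 bases before the start of the first window listed were searched on both strands. The motifs were the classical sterol regulatory element, the CCAAT box CCAAT bound by NF-Y, the GC box GGGCGG bound by Sp1, and the E-box CACGTG. NF-Y and Sp1 are known partners of SREBP at sterol genes. In the stretches below, read 5' to 3' on the gene's strand, capitals mark these motifs in either orientation. They lie at chr11:71448394-71448643 (minus strand) for DHCR7, chr17:17836987-17837236 (minus strand) for SREBF1, chr21:46228775-46229024 (minus strand) for LSS, chr5:43313413-43313662 (minus strand) for HMGCS1, chr4:110198616-110198865 (minus strand) for ELOVL6 and chr22:41832855-41833104 (plus strand) for SREBF2.
DHCR7: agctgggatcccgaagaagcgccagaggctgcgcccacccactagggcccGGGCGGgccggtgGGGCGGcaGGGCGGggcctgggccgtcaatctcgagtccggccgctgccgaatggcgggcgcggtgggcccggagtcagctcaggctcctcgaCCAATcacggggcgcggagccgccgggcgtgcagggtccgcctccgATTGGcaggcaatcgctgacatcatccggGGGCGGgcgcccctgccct
SREBF1: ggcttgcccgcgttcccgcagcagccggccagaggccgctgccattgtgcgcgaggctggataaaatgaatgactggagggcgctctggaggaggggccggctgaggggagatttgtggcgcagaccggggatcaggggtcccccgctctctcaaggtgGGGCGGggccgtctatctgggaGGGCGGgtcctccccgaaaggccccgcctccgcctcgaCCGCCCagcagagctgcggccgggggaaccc
LSS: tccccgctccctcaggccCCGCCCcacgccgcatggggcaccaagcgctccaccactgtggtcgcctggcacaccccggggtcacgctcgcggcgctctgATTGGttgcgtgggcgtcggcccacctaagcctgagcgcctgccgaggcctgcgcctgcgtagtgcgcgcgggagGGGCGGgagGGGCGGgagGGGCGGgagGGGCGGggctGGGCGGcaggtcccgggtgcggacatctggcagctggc
HMGCS1: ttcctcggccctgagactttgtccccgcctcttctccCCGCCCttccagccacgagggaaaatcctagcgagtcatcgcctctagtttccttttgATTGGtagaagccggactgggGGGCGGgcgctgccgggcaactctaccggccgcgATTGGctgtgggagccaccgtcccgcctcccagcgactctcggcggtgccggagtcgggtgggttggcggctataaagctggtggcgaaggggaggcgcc
ELOVL6: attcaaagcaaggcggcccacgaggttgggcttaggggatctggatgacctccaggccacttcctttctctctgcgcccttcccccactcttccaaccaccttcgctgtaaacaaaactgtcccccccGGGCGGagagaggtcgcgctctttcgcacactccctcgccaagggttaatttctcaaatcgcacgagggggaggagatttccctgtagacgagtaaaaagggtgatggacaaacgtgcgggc
SREBF2: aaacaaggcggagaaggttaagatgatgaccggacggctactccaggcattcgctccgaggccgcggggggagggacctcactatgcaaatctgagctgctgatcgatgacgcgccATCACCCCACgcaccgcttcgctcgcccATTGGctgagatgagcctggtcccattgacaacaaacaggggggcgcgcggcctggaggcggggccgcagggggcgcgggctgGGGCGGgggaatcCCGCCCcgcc

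The DHCR7 stretch held 2 CCAAT boxes and 4 GC boxes, and that of LSS 1 and 6. HMGCS1, higher in Jeko-1 cells, held 2 of each. SREBF1 and ELOVL6 held 3 GC boxes and 1 GC box, with no CCAAT box in this window. SREBF2 held 1 CCAAT box and 2 GC boxes and was the only one of the 26 with an exact match to the sterol regulatory element, its first capitals, 134 to 125 bases before the start. Of the first windows of 27305 genes, 0.0366% held that element. Over the pathway, 17 of 26 windows (65.4%) held a CCAAT box and 24 of 26 (92.3%) a GC box, against 33.0% and 42.3% of all genes. These 27305 genes were not limited to expressed ones, and base composition was not matched. An E-box was found in 3 of the 26, the windows of INSIG1, SC5D and SCAP, against 6.49% of all genes. In these windows 3 genes had motifs that shared bases with another, NSDHL, INSIG1 and ACACA. A match of letters is a description of the window and no evidence of binding.

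Other genes of the same pathways were counted from lists. Of 7 genes of SREBP processing and sterol-regulated degradation in the limma fit, 0 were higher in Raji cells and 3 were higher in Jeko-1 cells, where 30.1% and 23.3% of all genes were, so that its share called (42.9%) lay below that of all genes (53.4%). The list median was -0.51, against 0.29 over all genes. The 3 were INSIG2, the second INSIG gene, with 2080 and 1551 in the Jeko-1 lines and 188 and 180 in the Raji lines (-3.29 ± 0.25), and the ubiquitin ligases RNF145 (-2.12 ± 0.25) and RNF139 (-1.27 ± 0.24), which act on proteins of this system. INSIG1 and INSIG2 thus had line differences of opposite sign. The site proteases MBTPS1 (-0.35) and MBTPS2 (-0.51), which cut SREBP in the Golgi, did not pass. In neither pair did any gene of this list differ by 2-fold.

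Of 8 other sterol and cholesterol ester genes, 5 (62.5%) were higher in Raji cells and 3 (37.5%) in Jeko-1 cells, against 30.1% and 23.3% of all genes. The sterol scaffold gene ERG28 (2.27 ± 0.26), FAXDC2 (2.72 ± 0.24) and the cytochrome reductase gene CYB5R3 (2.63 ± 0.26) were higher in Raji cells. LBR, which encodes the other sterol reductase with the activity of TM7SF2, had 16749 and 15765 in the Jeko-1 lines against 7039 and 5365 in the Raji lines (-1.40 ± 0.25). Its log2 ratios in Jeko-1/R and Raji/R were -0.09 and -0.39, beside -0.78 and 1.60 for TM7SF2. SOAT1, which esterifies cholesterol for storage, was also higher in Jeko-1 cells (-1.62 ± 0.24). On the brightest probe sets this list had no gene 2-fold apart in either pair, and its median in Raji/R was 0.28. With the mean of its probe sets ERG28 stood at 1.21 in Jeko-1/R in place of 0.21, and at 0.14 in Raji/R in place of 0.61. On its brightest probe set FAXDC2 was higher in both sublines, with 132 and 211 in the Jeko-1 pair and 844 and 1426 in the Raji pair, but its limma adjusted p for resistance was 0.974 (unadjusted p = 0.0219), and with the mean of its probe sets its log2 ratio in Raji/R was 0.08 in place of 0.76.

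Of 18 other genes of fatty acid synthesis, elongation and activation, 6 (33.3%) were higher in Raji cells, near the 30.1% of all genes, and 7 (38.9%) in Jeko-1 cells, against 23.3%. The citrate carrier gene SLC25A1 (2.77 ± 0.24), the carboxylase gene ACACB (2.67 ± 0.24) and the acyl-CoA synthetase gene ACSL1 (2.84 ± 0.26) were higher in Raji cells. SCD5, a second stearoyl-CoA desaturase gene, ran opposite to SCD, with 1025 and 886 in the Jeko-1 lines and 46.5 and 207 in the Raji lines (-2.91 ± 0.39). It was also the only gene of this list past 2-fold within a pair, at least 2.68-fold higher in Raji/R, since its Raji value was below the floor. After the lowess adjustment it no longer reached 2-fold. On its brightest probe set the elongase gene ELOVL2 was higher in Jeko-1 cells, with 487 and 578 there and values below the floor in both Raji lines. By that probe set it was at least 6.85-fold higher. The mean of its probe sets reached the floor in the Raji pair, with a log2 ratio of -0.02, so its probe sets disagree there.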

How the data were processed

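Total RNA from 4 cultures was extracted with Trizol and labelled as biotinylated cRNA from 6 µg, per the labels' protocols. Per the submitters' processing notes the arrays were summarised by MAS5 (version not given). What the authors deposited are log2 signals of 54613 probe sets, and their base was inferred from the scaled means. Scaling by MAS5 uses a single factor per array and leaves differences that depend on signal level. Gene symbols came from the platform annotation and were updated by gene ID with RefSeq (GRCh38.p14), which changed 0. The annotation gave 41091 probe sets 1 symbol, 1801 several and 11721 none.

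Groups were taken from the labels. Values below the pooled median of all values, a signal of 77.5, were raised to it. Within a pair, genes at or above this floor on at least 1 array were described by their log2 ratio, with 2-fold as the size that counted, and where 1 array was below the floor the fold is a lower bound. No test was made with 1 array a group. Across lines, limma 3.58.1 (R 4.3.3) was fitted to 15575 genes with cell line and resistance as terms, which leaves 1 residual degree of freedom, with empirical Bayes moderation and two-sided Benjamini-Hochberg adjustment. The pairing comes from the cell lines. An exact test over 2 pairs cannot give a two-sided p below 0.5. The fit was also run on simulated arrays with independent noise drawn from its own estimated spread. That run cannot test the dependence between a parent and its subline, and its outcome is not given here.

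Every listed gene is described. Genes of the 6 other pathway lists (88 genes, 73 in the fit) are named where they were 2-fold apart in a pair, and others among them were picked after their values were seen. The members and lists were chosen with earlier results of these data known. Alternatives were the 75th percentile as floor, a pseudocount of 16, quantile normalization, lowess (fraction 0.3) or cyclic loess, the mean of all probe sets, no x_at or s_at probe sets, a fold of 1.5, other fits and each array left out. Other tools were statsmodels 0.14.6 for lowess, matplotlib 3.10.9 for plots, and pandas 2.3.3 with numpy 2.4.6 under Python 3.11.15.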

Additional observations from a re-analysis of the deposited data

Results flagged for a closer look

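The dimmer probe set of HMGCS1 was 2-fold apart in opposite directions in the 2 pairs. Its signals were 308 and 145 in the Jeko-1 pair, parent first, and 136 and 295 in the Raji pair. The log2 ratios were -1.09 and 1.12. The brightest probe set of HMGCS1 gave 0.005 and 0.04. The difference between the pairs was not tested, since each pair has 1 array on each side.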

How the results depend on the processing

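Within the Jeko-1 pair, 0 pathway genes were 2-fold higher or lower under the alternative floors, scalings and probe set choices, and at 1.5-fold 1 was lower. In the Raji pair 1 gene was 2-fold higher, which became 0 with the floor at the 75th percentile, 0 without x_at and s_at probe sets, 2 with the mean of all probe sets (TM7SF2 and MVK, at 1.07) and 7 at 1.5-fold. None was 2-fold lower, except 1 with a pseudocount (FADS2), and at 1.5-fold 2 were lower. The MVK value of 1.07 rests on a probe set with signals of 13.0 in Raji, below the floor, and 100.5 in Raji/R. With low values raised to the floor, that probe set gave 0.38. The other MVK probe sets gave 0.27 and 0.58, beside 0.48 from the brightest, so none reached 2-fold. The median of the pathway ranged from 0.03 to 0.08 in Jeko-1/R and from 0.04 to 0.38 in Raji/R. No gene passed in the resistance fit under any alternative run, including the fit with no replicate block, that is without the cell line term, where 0 genes passed; with an array left out that fit has no residual degrees of freedom and was not run. The cell line calls depended more on the settings. With each array left out in turn, limma called 0 to 6147 genes higher and 0 to 3076 lower in Raji cells, and 0 to 12 and 0 to 4 of the pathway. With no filter on low signals it called 755 and 739 of all genes and 1 and 1 of the pathway. The pathway counts were 15 higher and 5 lower in the fit reported. The lower count was 3 when a pseudocount replaced the floor and 3 when probe sets were averaged, and the higher count was 9 without x_at and s_at probe sets, where 13 of the 20 called genes had a value and all 13 passed. No direction of a called gene reversed under any alternative that gave it a value. The causes were not tested. Genes near the floor, such as SREBF1 in the Jeko-1 lines and FADS2 in Raji/R, are the least certain.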

Other observations

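Of 12 genes of the LXR and sterol efflux list in the limma fit, 3 were higher in Raji cells and 4 in Jeko-1 cells, where 30.1% and 23.3% of all genes were. The 3 higher in Raji cells were RXRB (1.45 ± 0.26), LPCAT3 (1.34 ± 0.25) and STARD3 (1.09 ± 0.27). MYLIP (-0.48 ± 0.33) was among those that did not pass. The lipid exporter genes ABCA1 and ABCG1, known targets of the sterol sensor LXR, were among those higher in Jeko-1 cells. ABCA1 had signals of 5529 and 4838 in the Jeko-1 lines and 251 and 171 in the Raji lines (-4.64 ± 0.25, adjusted p = 3.50e-05). ABCG1 had 4543 and 4048 in the Jeko-1 lines and was below the floor in both Raji lines, so that it was at least 55.3-fold higher in Jeko-1 cells. CH25H, which makes an oxysterol, was at least 4.86-fold higher there. Within the Raji pair this list had 3 of 10 genes past 2-fold, where 9.64% of all genes were. CYP27A1, which makes another oxysterol, went from a value below the floor to 265 and was at least 3.42-fold higher in Raji/R. NR1H3, an LXR gene, was at 229 in Raji and 92.0 in Raji/R, and its partner RXRA went from 156 to a value below the floor, at least 2.01-fold lower. With the mean of its probe sets the log2 ratio of RXRA was -0.39. All 3 genes have low signals in the Raji pair, where ratios depend on signal (median 0.51 over all genes averaging 106 to 204). After the lowess adjustment CYP27A1 stood at 1.27, NR1H3 at -1.81 and RXRA at -1.61. The Jeko-1 pair had 0 genes of this list past 2-fold.

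Fatty acid oxidation genes, which break fatty acids down, were often higher in Raji cells, with 10 of 16 (62.5%) higher and 3 (18.8%) lower in limma, against 30.1% and 23.3% of all genes. The mitochondrial genes ACADVL (3.20 ± 0.25) and CPT2 (3.14 ± 0.27) had the widest differences in that direction. CPT1A, which admits long-chain fatty acids to mitochondria, ran opposite, with 1459 and 1629 in the Jeko-1 lines against 95.8 in Raji and a value below the floor in Raji/R (-4.16 ± 0.26). Of 12 genes of the isoprenoid branches, 5 (41.7%) were higher in Raji cells and 4 (33.3%) in Jeko-1 cells, against 30.1% and 23.3% of all genes. PDSS2, a subunit of the enzyme that makes the ubiquinone side chain, was furthest apart (3.62 ± 0.28), and PDSS1, the other subunit, stood at -0.37 and did not pass. With the floor, neither list had a gene 2-fold apart in either pair, but CPT1A in Raji/R has only a bound, at least 1.24-fold lower.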
